A study of Mus musculus with 9 samples.

Results

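The Zfp zinc finger genes are the mouse genes named Zfp with a number. The rows of the deposited expression table with such a symbol were taken, Zfp36 left out, when they had at least 5 normalized counts in at least 3 of the 9 libraries. This rule gave 259 genes of the 10983 that passed the same minimum, in a table of 14912 rows. The table held 305 such symbols, so 46 fell under the minimum, 2 of them with a value of 0 in every library. Just inside the minimum were 10 genes that reached it in exactly 3 libraries, with means over the 9 libraries between 2.24 (Zfp69) and 7.44 (Zfp72). Just outside were 11 that reached it in 2 libraries, with means between 2.41 (Zfp704) and 10.3 (Zfp418).

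A zinc finger is a short protein loop held by a zinc ion, and rows of such fingers read DNA sequence. Many Zfp proteins also carry a KRAB domain, which binds the scaffold protein Trim28 and brings histone methyltransferases and heterochromatin proteins to the bound site. KRAB zinc finger genes lie in clusters made by gene duplication, and many of their proteins silence retrotransposons. Other Zfp genes, with few fingers and no KRAB domain, encode activators, corepressors, RNA-binding proteins or ribosome assembly factors. The symbol is a name by sequence type, so the genes share no single function.

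The cells were mouse CD4+ T cells of a B6 strain that makes eGFP from the Foxp3 locus (hemizygous for the reporter allele, Foxp3 tm2Tch), the gene of the transcription factor of regulatory T (Treg) cells. All 3 groups carried this reporter. The first group, mTO-iTreg cells, was eGFP-positive cells sorted on day 5 of co-culture with organoids of mouse colorectal tumours, where IL-2 was added at 20 U/ml and anti-CD3 and anti-CD28 each at 1 µg/ml. The second, TGFβ-iTreg cells, was eGFP-positive cells sorted at the same age of culture, which had received TGFβ at 10 ng/ml, IL-2 at 300 U/ml and both antibodies. The third was eGFP-negative CD4+ cells isolated on day 0, with no culture. Each group had 3 libraries. The design therefore asked how either kind of induced Treg cell differed from the starting cells, and how the kinds differed from each other. The cultures differed in IL-2 dose, and the day 5 cells differed from the day 0 cells in culture, stimulation and the eGFP sort together, which cannot be told apart here.

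Values are normalized counts, that is, the authors' counts scaled by one factor for each library. Library totals were 7551177, 7969853 and 7665711 counts in mTO-iTreg cells, 2078223, 7222895 and 9944952 in TGFβ-iTreg cells, and 3432420, 2267922 and 5328169 on day 0. A single count was worth 0.494 to 2.69 normalized counts, so that values of a few units rest on a few reads in the shallow libraries. eGFP was at 305, 462 and 262 in mTO-iTreg cells, at 588, 674 and 695 in TGFβ-iTreg cells, and at 26.3, 51.1 and 86.5 on day 0, in the direction of the sort labels. Foxp3 itself was at 69.6, 37.2 and 81.0 in mTO-iTreg cells, 19.7, 14.9 and 14.8 in TGFβ-iTreg cells, and 8.77, 0 and 2.11 on day 0. Both were lowest on day 0, but eGFP was higher in TGFβ-iTreg cells and Foxp3 in mTO-iTreg cells. The 8 measured CD4 T cell markers summed to 22877 to 27265, 21251 to 21654, and 31753 to 33985 in the same order of groups. The 10 measured myeloid and antigen-presenting cell markers summed to 1833 to 2991 in mTO-iTreg cells, 208 to 482 in TGFβ-iTreg cells and 906 to 7710 on day 0, where replicate 3 was the highest. Most of the mTO-iTreg sum was H2-Eb1, at 2331, 1410 and 1817 in mTO-iTreg cells, 41.8, 139.7 and 53.4 in TGFβ-iTreg cells, and 344, 175 and 1985 on day 0. Of the 10, 7 averaged higher and 3 lower in mTO-iTreg than in TGFβ-iTreg cells. Against day 0, 1 was higher, 8 lower and 1 equal in mTO-iTreg cells, and 1 higher and 9 lower in TGFβ-iTreg cells. Cd14 was at 0 in all 3 mTO-iTreg and all 3 day 0 libraries, and Itgax in all 3 mTO-iTreg libraries. The 7 measured intestinal epithelial markers summed to 34.1 to 115, 138 to 139, and 13.7 to 18.8, and 5 of the 7 averaged higher in mTO-iTreg than in day 0 cells. Epcam was at 21.1, 34.1 and 89.0 in mTO-iTreg cells, 93.5, 113 and 74.1 in TGFβ-iTreg cells, and 5.26, 18.8 and 7.38 on day 0, while Lgr5 and Cldn4 were at 0 in all 3 mTO-iTreg libraries. The 2 measured CD8 T cell markers summed to 93.0 to 125, 115 to 148, and 120 to 149 in the same order of groups. The 4 measured B cell markers summed to 61.1 to 104, 30.6 to 69.2, and 10.5 to 57.0, and in each comparison 2 averaged higher and 2 lower. Among them Cd79b was at 73.0, 58.9 and 48.5 in mTO-iTreg cells, 9.84, 14.9 and 4.45 in TGFβ-iTreg cells, and 3.51, 0 and 7.38 on day 0. The part of other cells in the results below was not tested. Xist, the RNA of the inactive X chromosome, was at 314 to 401 in mTO-iTreg cells, 0, 2.71 and 70.6 in TGFβ-iTreg cells and 3.51, 0 and 212 on day 0. A difference in the sex of the donor animals was not tested and cannot be told apart from the mTO-iTreg group. The mTO-iTreg libraries carried sample codes of another form than the rest, and a difference in handling cannot be told apart from the group.

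The Zfp genes were read at lower levels than the average tested gene. Their median mean level was 41.3 normalized counts, against 90.3 over all tested genes. There were 79 Zfp genes under 20, 124 between 20 and 100, and 56 over 100. Together they summed to 19826 ± 556 in mTO-iTreg cells, 21645 ± 711 in TGFβ-iTreg cells and 23093 ± 201 on day 0 (SD, n = 3 each). Zfp706 alone made up much of the TGFβ-iTreg sum. Without Zfp706 the sums were 18661 ± 599, 16716 ± 421 and 20343 ± 269 in the same order, and the 3 groups did not overlap. That order depended on the scaling. As a share of each library's normalized total, the same genes made up 0.369% ± 0.013 in mTO-iTreg cells, 0.336% ± 0.0158 in TGFβ-iTreg cells and 0.344% ± 0.0156 on day 0, with day 0 overlapping both iTreg groups. In bulk RNA, fewer cells that express a gene and less RNA per cell cannot be told apart.

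A smaller share of the Zfp genes than of all tested genes was called, a difference that was not tested, and in both kinds of induced Treg cell more of them fell than rose. In mTO-iTreg against day 0 cells, 21 Zfp genes rose and 29 fell, or 19.3% of the 259 (limma's moderated test, adjusted p under 0.05), while 33.9% of all tested genes were called (19.4% higher and 14.5% lower). Their median log2 change was -0.18, against 0.09 over all tested genes. In TGFβ-iTreg against day 0 cells, 5 rose and 18 fell, or 8.88%, while 18.6% of all tested genes were called (9.78% higher and 8.8% lower), and the medians were -0.39 and -0.02. In mTO-iTreg against TGFβ-iTreg cells, 25 were higher and 12 lower, or 14.3%, while 26.6% of all tested genes were called (14.9% higher and 11.8% lower), and the medians were 0.29 and 0.13. The 3 comparisons share libraries, so they are not independent of each other. The counts rest on single libraries. The 21 rises in mTO-iTreg against day 0 cells were 12 without mTO-iTreg replicate 1, and the 29 falls were 18 without day 0 replicate 1 or without day 0 replicate 2. The 5 rises in TGFβ-iTreg against day 0 cells were 3 without TGFβ-iTreg replicate 2, and the 18 falls were 8 without day 0 replicate 2. Between the iTreg groups the 25 higher genes were 16 without mTO-iTreg replicate 1, and the 12 lower genes 7 without TGFβ-iTreg replicate 2 or 3.

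Part of that gap went with the level of the genes. Over 100 normalized counts, 41.1% of Zfp genes and 46.2% of all genes were called in mTO-iTreg against day 0 cells, 16.1% and 26.9% in TGFβ-iTreg against day 0 cells, and 32.1% and 38.9% between the iTreg groups. Between 20 and 100 the shares were 13.7% of Zfp genes and 25.4% of all genes, 8.87% and 13.1%, and 11.3% and 16.5%. Under 20 they were 12.7% and 18.8%, 3.8% and 7.82%, and 6.33% and 14.2%. The Zfp share was the lower of the pair in all 9 of these comparisons. The split into rises and falls depended on how the libraries were scaled. With every library set to the same total, 28 rose and 21 fell in mTO-iTreg and 11 rose and 10 fell in TGFβ-iTreg against day 0 cells, but that scaling moved the median of all genes as well, to 0.31 and 0.22. The Zfp median lay under the median of all genes by 0.27 and 0.37 on the log2 scale as deposited, and by 0.30 and 0.36 at equal totals. Between the iTreg groups the direction was less steady. There, 18 were higher and 17 lower under TMM factors, and 17 were higher and 21 lower under quantile normalization. In mTO-iTreg against day 0 cells, quantile normalization gave 18 rises and 46 falls, and limma-voom on recovered counts 15 and 32.

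**Figure D1:**
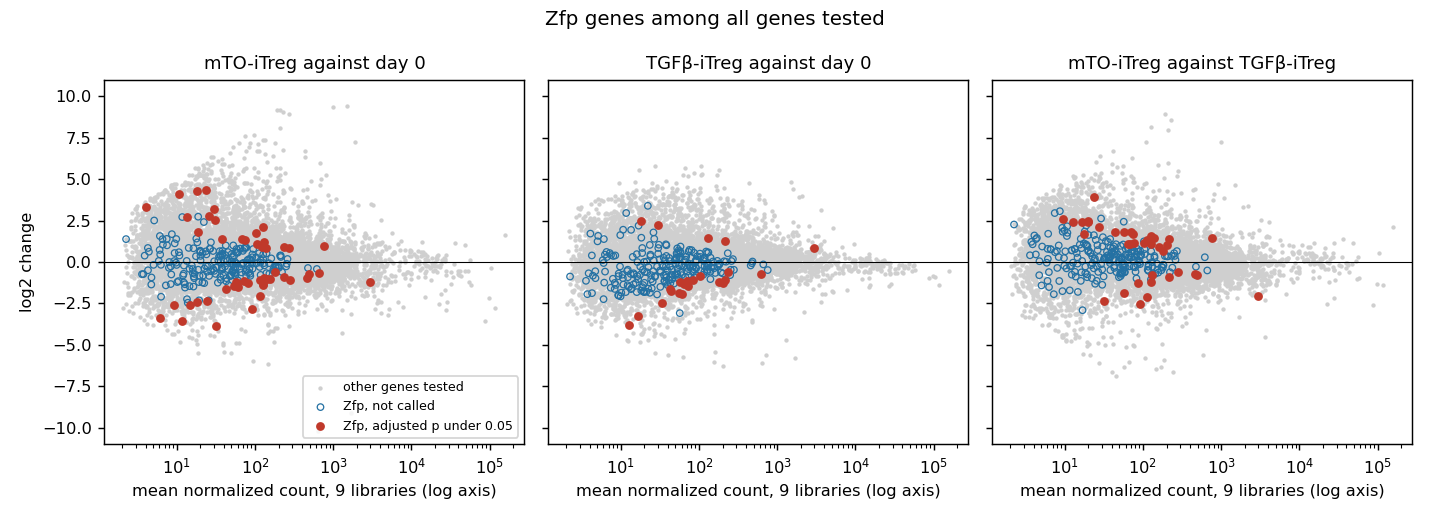
Mean normalized count over the 9 libraries (log axis) against the log2 change, with a panel for each iTreg group against day 0 (mTO-iTreg, then TGFβ-iTreg) and a last panel for mTO-iTreg against TGFβ-iTreg cells. Grey points are the other tested genes, blue rings the Zfp genes that were not called and red points those called, which number 50, 23 and 37.

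In all, 78 of the 259 Zfp genes were called in at least 1 comparison and 181 in none. Such joint counts were made for the Zfp genes only, not over all tested genes, and the comparisons share libraries. Whether they differ from those of other genes was not tested. Only Zfp445 and Zfp706 were called in all 3. Against day 0, 7 Zfp genes were called in the same direction in both iTreg groups. Of these, Zfp143, Zfp654, Zfp831 and Zfp445 were lower and Zfp358, Zfp580 and Zfp629 higher. Zfp831 (chr2:174643534-174710832), the largest of these falls in both groups, was at 36.1, 42.8 and 38.5 in mTO-iTreg cells, 27.1, 22.4 and 38.5 in TGFβ-iTreg cells, and 94.7, 118 and 123 on day 0. Day 0 lay above both iTreg groups (2.86-fold lower in mTO-iTreg cells, adjusted p = 0.006, and 3.82-fold lower in TGFβ-iTreg cells, adjusted p = 0.0025, limma). Zfp358 averaged 148 ± 43.1 in mTO-iTreg cells, 183 ± 59.7 in TGFβ-iTreg cells and 64.7 ± 18.7 on day 0 (SD, n = 3 each, adjusted p = 0.015 and 0.0085, limma). Its mTO-iTreg call ended without mTO-iTreg replicate 1 or 3 or day 0 replicate 2 (adjusted p = 0.052 to 0.069), and its TGFβ-iTreg call under limma-voom (0.066). Zfp654 averaged 54.4 ± 14.6, 43.4 ± 8.29 and 119 ± 13.8 in the same order (adjusted p = 0.018 and 0.0096, limma), and its mTO-iTreg call ended without mTO-iTreg replicate 2 or day 0 replicate 2 (adjusted p = 0.058 to 0.067). Zfp706 was the 1 gene called in opposite directions.

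Zfp706 (chr15:36997027-37007773, GRCm38) was the most highly read Zfp gene. It encodes a small protein with a single finger, known in mouse embryonic stem cells for a part in leaving self-renewal. It was at 1095, 1208 and 1193 normalized counts in mTO-iTreg cells, at 4882, 5318 and 4587 in TGFβ-iTreg cells, and at 2672, 2804 and 2774 on day 0. The 3 groups were far apart, with mTO-iTreg cells lowest and TGFβ-iTreg cells highest. The log2 change was -1.24 ± 0.11 (SE) in mTO-iTreg against day 0 cells (adjusted p = 2e-06, limma) and 0.84 ± 0.11 in TGFβ-iTreg against day 0 cells (adjusted p = 0.00014, limma). Between the iTreg groups it was -2.08 ± 0.11 (adjusted p = 3e-08, limma), and all 3 calls held under every alternative run. Of the 31-base words in the last 500 bases of its transcript, 54% also occur in other annotated genes, so its reads may be shared with them.

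Zfp281 (chr1:136624901-136630053) was the second most highly read and differed the other way. It encodes a GC-rich DNA binding protein that restrains pluripotency genes in mouse embryonic stem cells. It was at 1220, 1460 and 959.9 in mTO-iTreg cells, 489, 385 and 448 in TGFβ-iTreg cells, and 619, 621 and 612 on day 0. It rose 1.97-fold in mTO-iTreg against day 0 cells (log2 change 0.95 ± 0.16, adjusted p = 0.00057, limma). It was 2.75-fold higher in mTO-iTreg than in TGFβ-iTreg cells (adjusted p = 3.3e-05, limma). In TGFβ-iTreg against day 0 cells the libraries did not overlap, but the log2 change of -0.49 ± 0.16 missed the threshold (adjusted p = 0.052, limma).

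Zfp839, Zfp629, Zfp316, Zfp580, Zfp810, Zfp239, Zfp703 and Zfp574 had the largest rises in mTO-iTreg against day 0 cells by log2 change. This order covers called genes that averaged 20 or more in mTO-iTreg cells and whose libraries stood clear of day 0. Zfp574 (chr7:25072567-25083492, 18 fingers) was at 241, 218 and 264 in mTO-iTreg cells, 83.6, 84.8 and 74.1 in TGFβ-iTreg cells, and 49.1, 37.6 and 90.7 on day 0. The mTO-iTreg libraries were above all others, 4.07-fold over day 0 (adjusted p = 0.00021, limma) and 2.98-fold over TGFβ-iTreg cells (adjusted p = 0.0027, limma). Zfp839 (chr12:110850253-110869996) was at 62.1, 84.4 and 41.8 in mTO-iTreg cells, 0, 13.6 and 3.46 in TGFβ-iTreg cells, and 1.75, 0 and 8.44 on day 0. Its log2 change was 4.37 ± 1.02 against day 0 (adjusted p = 0.0048, limma) and 3.93 ± 1.02 against TGFβ-iTreg cells (adjusted p = 0.012, limma), and the day 0 level rested on 9 counts in all. Against TGFβ-iTreg cells its adjusted p was 0.057 when genes under the minimum were tested too. Zfp580 (chr7:5051538-5053723) was at 35.5, 70.1 and 60.4 in mTO-iTreg cells, 32, 45.4 and 13.8 in TGFβ-iTreg cells, and 3.51, 5.38 and 6.33 on day 0. Both iTreg groups were above day 0 without overlap (adjusted p = 0.00086 and 0.016, limma). The TGFβ-iTreg call ended without TGFβ-iTreg replicate 1 or 2 (adjusted p = 0.053 to 0.083, limma), and limma-voom on recovered counts gave 0.21.

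Zfp316, with 14 fingers and a KRAB pattern, was at 17.7, 17.4 and 39.2 in mTO-iTreg cells, 14.8, 0.678 and 4.94 in TGFβ-iTreg cells, and 1.75, 0 and 0 on day 0. Its log2 change against day 0 was 4.10 ± 0.94 (adjusted p = 0.0041, limma), and the day 0 level rested on 1 count. That call held under the 20 alternatives in which the gene was tested. Zfp316 passed the minimum only through the mTO-iTreg libraries and TGFβ-iTreg replicate 1, so its call leans on the rule that chose it. Zfp810, also with a KRAB pattern, averaged 44.7 ± 2.67 in mTO-iTreg cells, 22.5 ± 8.34 in TGFβ-iTreg cells and 11.3 ± 11.6 on day 0 (SD, n = 3 each, adjusted p = 0.03 against day 0, limma). Its call ended without any mTO-iTreg library or without day 0 replicate 1 (adjusted p = 0.07 to 0.075). Zfp239 averaged 23.7 ± 10.1 in mTO-iTreg cells, 13.1 ± 4.18 in TGFβ-iTreg cells and 3.86 ± 3.39 on day 0 (adjusted p = 0.019 against day 0, limma), and its call ended without mTO-iTreg replicate 2 or day 0 replicate 2 (adjusted p = 0.057 to 0.075). Zfp703, a corepressor amplified in human breast tumours, averaged 59.2 ± 30.7 in mTO-iTreg cells, 21.6 ± 13.2 in TGFβ-iTreg cells and 11.3 ± 10.4 on day 0 (adjusted p = 0.02 against day 0, limma), and its call ended without mTO-iTreg replicate 1 or 3 or day 0 replicate 2 (adjusted p = 0.066 to 0.088).

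Zfp715 was lower in mTO-iTreg cells than in both other groups. This gene (chr7:43296197-43313294, 18 fingers, with a KRAB pattern) was at 17.7, 18 and 18.6 in mTO-iTreg cells, 108, 103 and 123 in TGFβ-iTreg cells, and 128, 196 and 105 on day 0. It was 7.91-fold lower in mTO-iTreg than in day 0 cells (log2 change -2.87 ± 0.33, adjusted p = 2.2e-05, limma) and 6.15-fold lower than in TGFβ-iTreg cells (adjusted p = 9.5e-05, limma). The TGFβ-iTreg and day 0 libraries overlapped. Zfp407, which supports PPARγ target genes in mouse adipocytes, was at 30, 89.9 and 13.9 in mTO-iTreg cells, 172, 140.4 and 137 in TGFβ-iTreg cells, and 102, 139.8 and 204 on day 0. All 3 mTO-iTreg libraries were below the other 6 (log2 changes -2.04 ± 0.51 and -2.11 ± 0.51, adjusted p = 0.0071 and 0.0079, limma), although they differed much among themselves. The second call ended when genes under the minimum were tested too (adjusted p = 0.055, limma).

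Zfp655 was also lowest in mTO-iTreg cells, with 89.3, 53.3 and 52.5 in mTO-iTreg cells, 184, 134 and 135 in TGFβ-iTreg cells, and 147, 161 and 180.4 on day 0. It was 2.51-fold lower in mTO-iTreg than in day 0 cells (adjusted p = 0.0021, limma) and 2.32-fold lower than in TGFβ-iTreg cells (adjusted p = 0.0054, limma), and both calls held under all alternatives. Zfp1 averaged 54.4 ± 26.7 in mTO-iTreg cells, 122 ± 23.8 in TGFβ-iTreg cells and 82.9 ± 17.4 on day 0 (SD, n = 3 each). It was called between the iTreg groups (adjusted p = 0.029, limma), and the call ended without mTO-iTreg replicate 3 or TGFβ-iTreg replicate 2 or 3 (adjusted p = 0.083 to 0.11). Zfp719 averaged 22.9 ± 4.71 in mTO-iTreg cells, 30.3 ± 8.76 in TGFβ-iTreg cells and 75.8 ± 24.3 on day 0, and its 3.3-fold fall in mTO-iTreg cells held under all alternatives (adjusted p = 0.011, limma). Zfp78, Zfp300 and Zfp882, which like Zfp719 carry a KRAB pattern, were read rarely. Zfp78 averaged 1.45 ± 2.51 in mTO-iTreg cells, on 7 counts in all, and 24.0 ± 15.3 on day 0 (adjusted p = 0.031, limma). Zfp300 averaged 4.03 ± 4.2 in mTO-iTreg cells and 25.4 ± 12.3 on day 0 (adjusted p = 0.02, limma). Zfp882, whose last 500 bases overlap Zfp617 on the same strand, averaged 6.1 ± 3 in mTO-iTreg cells and 34.8 ± 10.3 on day 0 (adjusted p = 0.026, limma). Each of these 3 calls ended without 1 library, Zfp78 without mTO-iTreg replicate 1 or 3 or day 0 replicate 1 or 2 (adjusted p = 0.092 to 0.1), Zfp300 without mTO-iTreg replicate 2 or 3 or day 0 replicate 1 or 2 (0.059 to 0.074), and Zfp882 without mTO-iTreg replicate 3 or day 0 replicate 1 or 2 (0.062 to 0.095).

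Zfp956, Zfp935, Zfp365 and Zfp467 were among the genes with the largest log2 changes toward mTO-iTreg cells when the iTreg groups were compared. Zfp365, a centrosomal protein, was at 48.4, 60.8 and 38.5 in mTO-iTreg cells, 12.3, 6.1 and 15.8 in TGFβ-iTreg cells, and 28.1, 18.8 and 16.9 on day 0. It was 4.32-fold higher in mTO-iTreg than in TGFβ-iTreg cells (adjusted p = 0.01, limma), a call that held under all alternatives. Zfp467, which favours adipocyte formation in mouse, averaged 118 ± 33.2 in mTO-iTreg cells, 34.8 ± 5.68 in TGFβ-iTreg cells and 71.4 ± 41.3 on day 0 (SD, n = 3 each, adjusted p = 0.014 between the iTreg groups, limma), and the call ended without mTO-iTreg replicate 3 (adjusted p = 0.065). Zfp956 averaged 34.6 ± 16.4 in mTO-iTreg cells, 5.32 ± 2.55 in TGFβ-iTreg cells and 19.8 ± 5.68 on day 0 (adjusted p = 0.011, limma), a call that ended without mTO-iTreg replicate 1 (adjusted p = 0.058). Zfp935 averaged 32.2 ± 10.3 in mTO-iTreg cells, 5.39 ± 2.54 in TGFβ-iTreg cells and 22.4 ± 13 on day 0 (adjusted p = 0.013, limma), but all of the words at its end also occur in another gene, so its value is uncertain, and its call ended without mTO-iTreg replicate 3 (adjusted p = 0.05).

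Of the 10 most highly read Zfp genes, Zfp746, Zfp386, Zfp362, Zfp106 and Zfp259 are not described elsewhere. Zfp746, a repressor of the gene of PGC-1α, was at 515, 420.0 and 547 in mTO-iTreg cells, 762, 778 and 584 in TGFβ-iTreg cells, and 909, 602 and 865 on day 0. It fell 1.6-fold in mTO-iTreg against day 0 cells (adjusted p = 0.014, limma), a call that ended without mTO-iTreg replicate 2 or day 0 replicate 1 or 3 (adjusted p = 0.052 to 0.063) and at equal totals (0.088). Zfp386, with a KRAB pattern, averaged 580.3 ± 33.1 in mTO-iTreg cells, 488 ± 128 in TGFβ-iTreg cells and 786 ± 128 on day 0 (SD, n = 3 each). Its fall in TGFβ-iTreg against day 0 cells (adjusted p = 0.021, limma) ended without TGFβ-iTreg replicate 2 or day 0 replicate 1 (adjusted p = 0.088 to 0.09) and at equal totals (0.1). Zfp106, an RNA-binding protein needed by mouse motor neurons, averaged 368 ± 51.5 in mTO-iTreg cells, 233 ± 27.1 in TGFβ-iTreg cells and 214 ± 71.8 on day 0. It rose 1.72-fold in mTO-iTreg against day 0 cells (adjusted p = 0.016, limma), a call that ended without mTO-iTreg replicate 1 or day 0 replicate 1 (adjusted p = 0.066 to 0.07). Zfp362 and Zfp259, the gene of the protein also called ZPR1, were not called in any comparison. Zfp362 averaged 406 ± 81.6 in mTO-iTreg cells, 497 ± 105 in TGFβ-iTreg cells and 524 ± 110 on day 0, and Zfp259 averaged 282 ± 81.3 in mTO-iTreg cells, 253 ± 26.9 in TGFβ-iTreg cells and 247 ± 53.8 on day 0.

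**Figure D2:**
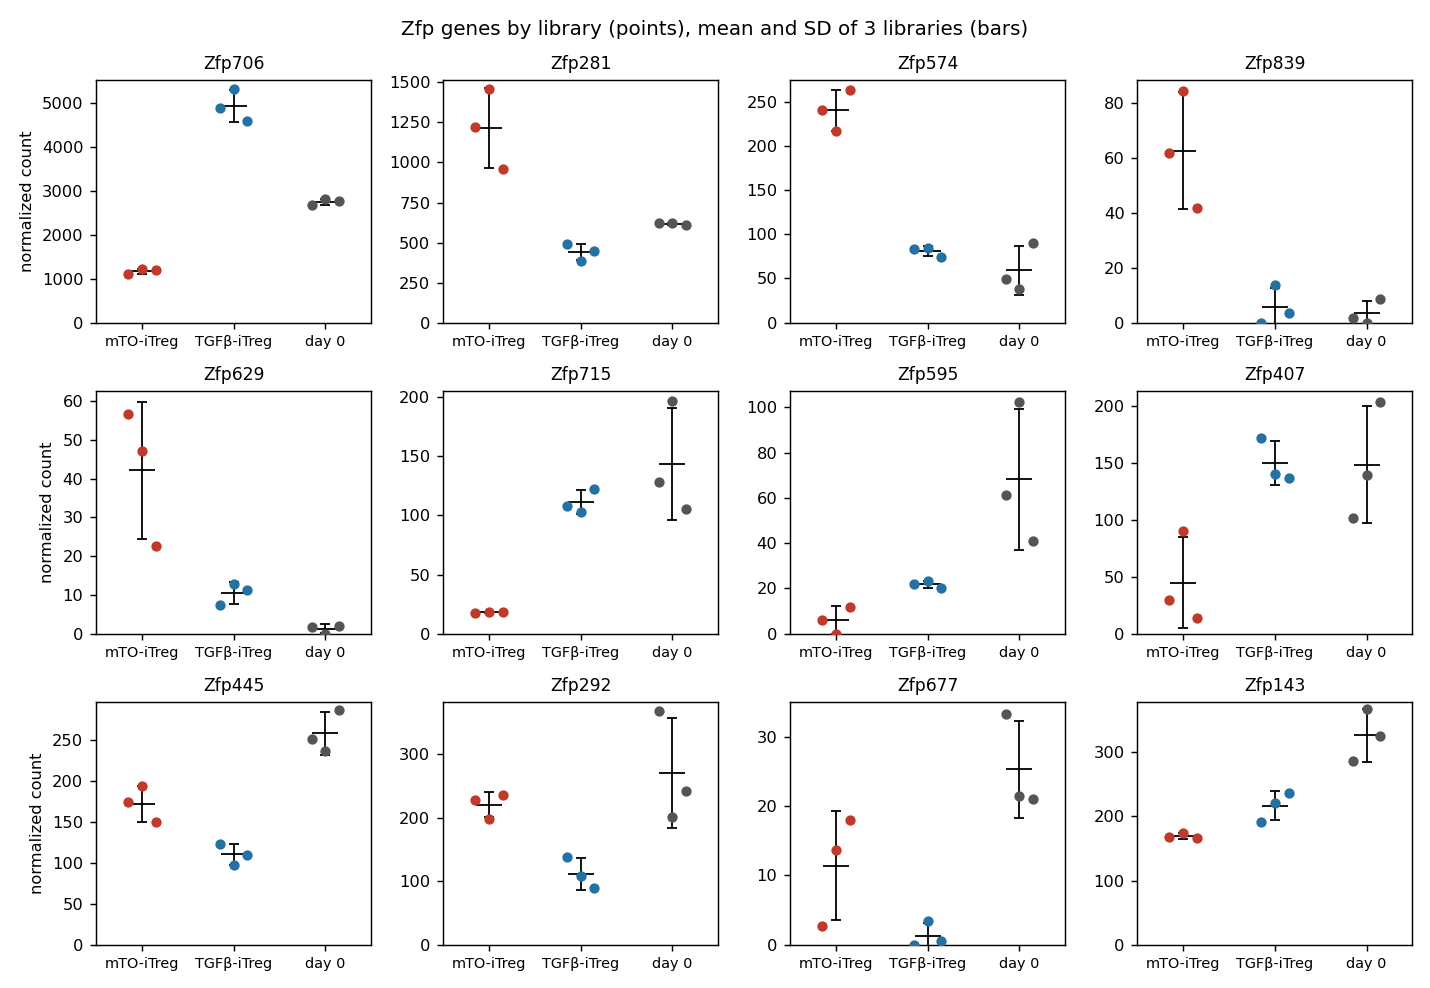
Normalized counts of 12 Zfp genes in each library (points) of mTO-iTreg, TGFβ-iTreg and day 0 cells, with the mean and SD of 3 libraries (bars), each panel on its own axis from 0. Zfp706 is highest in TGFβ-iTreg cells, Zfp281, Zfp574, Zfp839 and Zfp629 are highest in mTO-iTreg cells, and Zfp715 and Zfp407 are lowest there.

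A smaller group was lowest in TGFβ-iTreg cells. Of the 18 Zfp genes that fell there against day 0, 8 were also higher in mTO-iTreg than in TGFβ-iTreg cells without a call between mTO-iTreg and day 0 cells. The 8 were Zfp110, Zfp292, Zfp62, Zfp677, Zfp692, Zfp871, Zfp930 and Zfp946. This pattern too was counted in the Zfp genes only, so its share among other genes is not known. The Zfp677 call between the iTreg groups ended in 16 of 21 alternatives, among them without any 1 of 7 libraries, all but mTO-iTreg replicate 1 and TGFβ-iTreg replicate 2 (adjusted p = 0.054 to 0.16). The Zfp946 call there ended in 12 of 21, among them without any mTO-iTreg library, TGFβ-iTreg replicate 1 or 2 or day 0 replicate 1 (adjusted p = 0.05 to 0.13). The Zfp871 fall against day 0 (adjusted p = 0.038, limma) ended without TGFβ-iTreg replicate 1, mTO-iTreg replicate 1 or 3 or day 0 replicate 2 or 3 (adjusted p = 0.051 to 0.12), and the Zfp930 fall (adjusted p = 0.019, limma) without TGFβ-iTreg replicate 3 or day 0 replicate 2 (adjusted p = 0.062 to 0.077). Zfp292 was at 228, 198 and 236 in mTO-iTreg cells, 138, 108 and 88.9 in TGFβ-iTreg cells, and 368, 202 and 242 on day 0. The TGFβ-iTreg libraries were below the other 6 (2.43-fold under day 0, adjusted p = 0.0043, and 1.98-fold under mTO-iTreg cells, adjusted p = 0.011, limma). Zfp692 was at 89.3, 88.1 and 84.4 in mTO-iTreg cells, 17.2, 29.2 and 28.2 in TGFβ-iTreg cells, and 50.9, 78 and 47.5 on day 0. Its adjusted p between the iTreg groups was 0.0032. Its fall against day 0 (adjusted p = 0.04, limma) ended without any 1 of 8 libraries, all but day 0 replicate 3, with adjusted p between 0.053 and 0.13. Zfp62 had means of 109 ± 14.5 in mTO-iTreg cells, 32.1 ± 13.2 in TGFβ-iTreg cells and 68.8 ± 12 on day 0 (SD, n = 3 each). Its call between the iTreg groups (adjusted p = 0.0027, limma) held under all alternatives, and that against day 0 (adjusted p = 0.045, limma) ended without any 1 of 8 libraries, all but TGFβ-iTreg replicate 3 (adjusted p = 0.058 to 0.16). Zfp397 fell in TGFβ-iTreg against day 0 cells as well, with 37.4 ± 19.8 in mTO-iTreg cells, 21.5 ± 3.16 in TGFβ-iTreg cells and 70.3 ± 19.2 on day 0 (adjusted p = 0.027, limma), a call that ended without TGFβ-iTreg replicate 2 or 3 or day 0 replicate 2 or 3 (adjusted p = 0.065 to 0.086) and at equal totals (0.051).

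Among Zfp repressors of transposons, viruses and imprinted loci, few were called. Of 13 listed genes, 8 were measured, and Zfp57, the best known guardian of imprints, was not among them. None rose and 2 fell in mTO-iTreg against day 0 cells, none rose and 1 fell in TGFβ-iTreg against day 0 cells, and 1 was higher and 1 lower between the iTreg groups. These are 25%, 12.5% and 25% of the 8, while 33.9%, 18.6% and 26.6% of all tested genes were called. Their median log2 changes were -0.51, -0.85 and 0.23, against 0.09, -0.02 and 0.13 over all tested genes. Zfp445, which keeps parental imprints in mouse and human embryos, was at 174, 194 and 149 in mTO-iTreg cells, 123, 97.7 and 110.2 in TGFβ-iTreg cells, and 251, 237 and 287 on day 0. The 3 groups did not overlap. The fall in TGFβ-iTreg cells was 2.34-fold (log2 change -1.22 ± 0.21, adjusted p = 0.0015, limma) and held under all alternatives. The fall in mTO-iTreg cells (log2 change -0.58 ± 0.21, adjusted p = 0.047, limma) ended without any 1 of 7 libraries, all but mTO-iTreg replicate 2 and TGFβ-iTreg replicate 1 (adjusted p = 0.055 to 0.14). At equal totals its adjusted p was 0.22 (limma). The difference between the iTreg groups (adjusted p = 0.04, limma) ended without mTO-iTreg replicate 1 or 2 or TGFβ-iTreg replicate 2 or 3 (adjusted p = 0.086 to 0.12).

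Zfp961, listed with the KRAB repressors of retroviral sequence, was at 13.6, 44.7 and 21.3 in mTO-iTreg cells, 106, 70.5 and 92.4 in TGFβ-iTreg cells, and 50.9, 59.1 and 59.1 on day 0. It was 3.38-fold lower in mTO-iTreg than in TGFβ-iTreg cells (adjusted p = 0.0065, limma). The call against day 0 (adjusted p = 0.045, limma) ended without any 1 of 8 libraries, all but mTO-iTreg replicate 2 (adjusted p = 0.054 to 0.16). Zfp809, which silences murine leukaemia viruses in embryonic cells, had means of 29.3 ± 8.84 in mTO-iTreg cells, 28.5 ± 19 in TGFβ-iTreg cells and 37.2 ± 12 on day 0 (SD, n = 3 each) with overlap of all groups. Zfp568, which silences a placental Igf2 promoter, averaged 26.7 ± 4.28, 40.5 ± 27.4 and 61.3 ± 10.5 in the same order and was not called (adjusted p = 0.14 and 0.31 against day 0, limma). Zfp932, a silencer of endogenous retroviruses, averaged 48.7 ± 16, 38.7 ± 3.29 and 75.5 ± 6.24 (adjusted p = 0.17 and 0.09, limma). Of the 31-base words at the end of Zfp932, 76% also occur in other genes, so these reads are uncertain. Zfp459 averaged 17.2 ± 2.11 in mTO-iTreg cells, 7.15 ± 5.89 in TGFβ-iTreg cells and 23.7 ± 5.01 on day 0, with adjusted p = 0.064 in TGFβ-iTreg against day 0 cells (limma). Zfp54 averaged 24.1 ± 16.7 in mTO-iTreg cells, 11.02 ± 10.2 in TGFβ-iTreg cells and 17.6 ± 13.2 on day 0, and Zfp708, all of whose end words occur in other genes, averaged 23.5 ± 12.7 in mTO-iTreg cells, 24.6 ± 8.05 in TGFβ-iTreg cells and 39.2 ± 28 on day 0. Neither was called in any comparison.

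Of 7 listed lymphocyte and signalling genes, 5 were measured, and Zfp281 was the 1 that changed. The others were not called in any comparison. Zfp281 was called in mTO-iTreg cells against day 0 and against TGFβ-iTreg cells, or 20% of the 5 in each, where 33.9% and 26.6% of all tested genes were called. Zfp91, a ubiquitin ligase of the noncanonical NF-κB pathway, was at 187, 195 and 116 in mTO-iTreg cells, 241 to 256 in the TGFβ-iTreg libraries, and 237, 215 and 295 on day 0. The mTO-iTreg libraries were below the other 6, with adjusted p = 0.056 against day 0 and 0.061 against TGFβ-iTreg cells (limma). Zfp335, needed for the maturation of mouse T cells, averaged 72.6 ± 10.7 in mTO-iTreg cells, 81.9 ± 17.7 in TGFβ-iTreg cells and 99.9 ± 35.1 on day 0 (SD, n = 3 each). Of the words at its end, 93% also lie in Pcif1 on the other strand, so its value is uncertain. Zfp318, which lets B cells make IgD, averaged 89.4 ± 27.5, 56 ± 25.2 and 49.7 ± 3.83. Zfp451, a SUMO ligase, averaged 64.4 ± 9.08, 57.4 ± 13.5 and 36.4 ± 23.4.

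Sequence-specific activators and corepressors fell where they changed against day 0. Of 11 listed, 7 were measured, of which none rose and 3 fell in mTO-iTreg cells and none rose and 2 fell in TGFβ-iTreg cells. Between the iTreg groups, 1 was higher and 3 lower in mTO-iTreg cells. Over all tested genes, 14.5% fell in mTO-iTreg and 8.8% in TGFβ-iTreg against day 0 cells, and 14.9% were higher and 11.8% lower between the iTreg groups. In the list, 42.9% and 28.6% fell, and 14.3% were higher and 42.9% lower. The list's median log2 changes were -0.44, -0.21 and -0.50, beside 0.09, -0.02 and 0.13 over all tested genes. Zfp143, an activator of small nuclear RNA genes and many housekeeping promoters, was at 168, 175 and 166 in mTO-iTreg cells, 192, 221 and 237 in TGFβ-iTreg cells, and 286, 368 and 325 on day 0. The 3 groups did not overlap, and the fall in mTO-iTreg cells was 1.92-fold (adjusted p = 0.0017, limma). That in TGFβ-iTreg cells (adjusted p = 0.043, limma) ended without any 1 of 6 libraries, all but mTO-iTreg replicates 2 and 3 and day 0 replicate 1 (adjusted p = 0.051 to 0.14). At equal totals its adjusted p was 0.24 (limma). The last 500 bases of Zfp143 overlap another annotated gene. Zfp217, a corepressor amplified in human breast tumours, averaged 296 ± 49.8 in mTO-iTreg cells, 511 ± 184 in TGFβ-iTreg cells and 568 ± 76.8 on day 0 (SD, n = 3 each). Its fall in mTO-iTreg cells against day 0 held under all alternatives (adjusted p = 0.0087, limma). Its lower call against TGFβ-iTreg cells rested on single libraries. That call ended without any mTO-iTreg library, TGFβ-iTreg replicate 2 or 3 or day 0 replicate 1 (adjusted p = 0.054 to 0.17, limma). Zfp410, an activator of the chromatin remodeller gene Chd4, was at 115, 89.9 and 99 in mTO-iTreg cells, 199, 130.2 and 204 in TGFβ-iTreg cells, and 105, 121 and 124 on day 0. It was 1.76-fold lower in mTO-iTreg than in TGFβ-iTreg cells (adjusted p = 0.035, limma), a call that ended without mTO-iTreg replicate 2 or 3 or TGFβ-iTreg replicate 1 or 3 (adjusted p = 0.077 to 0.13). Zfp148, a binder of GC-rich promoters, averaged 267 ± 31.1 in mTO-iTreg cells, 207 ± 22.8 in TGFβ-iTreg cells and 290.0 ± 51.6 on day 0, and Zfp131 averaged 138 ± 41.7 in mTO-iTreg cells, 195 ± 61.6 in TGFβ-iTreg cells and 182 ± 20.47 on day 0. Neither was called in any comparison.

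All 6 listed chromatin complex partners were measured. In mTO-iTreg against day 0 cells 1 rose and 1 fell, none was called in TGFβ-iTreg against day 0 cells, where 1 had an unadjusted p under 0.05, and 1 was lower between the iTreg groups. These are 33.3%, 0% and 16.7% of the 6, beside 33.9%, 18.6% and 26.6% of all tested genes. Zfp592, a partner of Zmynd8 and Zfp687 in a complex that restrains transcription, was at 182, 213 and 153 in mTO-iTreg cells, 261, 265 and 297 in TGFβ-iTreg cells, and 414, 347 and 386 on day 0. The 3 groups did not overlap, and the fall in mTO-iTreg cells was 2.09-fold (adjusted p = 0.00059, limma). The difference between the iTreg groups (adjusted p = 0.03, limma) ended without any 1 of 5 libraries, the 3 of TGFβ-iTreg cells and mTO-iTreg replicates 1 and 3 (adjusted p = 0.056 to 0.1). Its partner Zfp687 averaged 41.3 ± 7.11 in mTO-iTreg cells, 35 ± 11 in TGFβ-iTreg cells and 33.2 ± 12.5 on day 0 (SD, n = 3 each), and the groups overlapped. Zfp644, which works with the G9a and GLP methyltransferases, averaged 104 ± 31.4, 58.1 ± 4.12 and 89.8 ± 11.1 and was not called. Zfp219 was called higher in mTO-iTreg than in day 0 cells (30.9 ± 3.12 against 10.1 ± 8.44, adjusted p = 0.047, limma). That call ended without any 1 of 8 libraries, all but day 0 replicate 1 (adjusted p = 0.051 to 0.15). Zfp266 averaged 117 ± 22.2 in mTO-iTreg cells, 129 ± 10 in TGFβ-iTreg cells and 108 ± 12.1 on day 0, and Zfp668 averaged 45.3 ± 8.67 in mTO-iTreg cells, 37.1 ± 9.8 in TGFβ-iTreg cells and 32.4 ± 19.2 on day 0. Neither was called in any comparison.

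Zfp genes of RNA, the ribosome and the spindle changed in both directions. Of 12 listed, 11 were measured, with 3 higher and 3 lower in mTO-iTreg against day 0 cells, 1 higher and none lower in TGFβ-iTreg against day 0 cells, and 2 higher and 2 lower between the iTreg groups. These are 54.5%, 9.09% and 36.4% of the 11, beside 33.9%, 18.6% and 26.6% of all tested genes. Both ribosome assembly genes rose in mTO-iTreg cells. Zfp622, which matures the large ribosomal subunit in the cytoplasm, was at 308, 273 and 327 in mTO-iTreg cells, 244, 246 and 214 in TGFβ-iTreg cells, and 184, 139.8 and 167 on day 0. The 3 groups did not overlap, with a 1.85-fold rise in mTO-iTreg cells (adjusted p = 0.0027, limma) and a log2 change of 0.52 ± 0.19 in TGFβ-iTreg cells that missed the threshold (adjusted p = 0.073, limma). Zfp593, whose yeast relative takes part in export of the same subunit, was at 80.5, 133 and 124 in mTO-iTreg cells, 51.7, 60.4 and 43 in TGFβ-iTreg cells, and 38.6, 32.3 and 54.9 on day 0. It rose 2.68-fold against day 0 (adjusted p = 0.0078, limma). The call against TGFβ-iTreg cells (adjusted p = 0.037, limma) ended without mTO-iTreg replicate 2 or 3 or any TGFβ-iTreg library (adjusted p = 0.057 to 0.12). Its last 500 bases overlap another annotated gene.

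Zfp207, a Bub3-binding protein of the mitotic spindle, was at 333, 309.6 and 347 in mTO-iTreg cells, 598, 642 and 462 in TGFβ-iTreg cells, and 491, 624 and 549.6 on day 0. The mTO-iTreg libraries were below the other 6, 1.68-fold under day 0 (adjusted p = 0.0037, limma) and 1.72-fold under TGFβ-iTreg cells (adjusted p = 0.0041, limma). Zfp346, a binder of double-stranded RNA, was at 182, 170.0 and 161 in mTO-iTreg cells, 78.7, 99.7 and 69.7 in TGFβ-iTreg cells, and 105, 105 and 174 on day 0. It was 2.07-fold higher in mTO-iTreg than in TGFβ-iTreg cells (adjusted p = 0.011, limma). Zfp598, the ubiquitin ligase that marks collided ribosomes, averaged 129.9 ± 39.9, 129 ± 32.2 and 132 ± 12.7 in mTO-iTreg, TGFβ-iTreg and day 0 cells (SD, n = 3 each), with log2 changes of -0.07 and -0.06 against day 0, each with a standard error of 0.29. Zfp277 averaged 104 ± 37.2 in mTO-iTreg cells, 156 ± 14 in TGFβ-iTreg cells and 211 ± 66.9 on day 0. Its fall in mTO-iTreg against day 0 cells (adjusted p = 0.02, limma) ended without mTO-iTreg replicate 2 or day 0 replicate 1 or 2 (adjusted p = 0.068 to 0.086). Zfp330, Zfp326 and Zfp830 were not called in any comparison. Zfp830 averaged 69.9 ± 9.75 in mTO-iTreg cells, 105 ± 8.11 in TGFβ-iTreg cells and 65.8 ± 19 on day 0. Zfp326, which links transcription to splicing, averaged 89.5 ± 13.5 in mTO-iTreg cells, 68.9 ± 17 in TGFβ-iTreg cells and 121 ± 28.8 on day 0. Zfp330, a nucleolar protein, averaged 248 ± 73.3 in mTO-iTreg cells, 195 ± 54.3 in TGFβ-iTreg cells and 186 ± 30.2 on day 0.

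The KRAB class as a whole lay lower in TGFβ-iTreg cells than elsewhere. A KRAB sequence pattern was found in 95 of the 257 Zfp genes with an annotated protein, and a finger pattern occurred 0 to 36 times per protein with a median of 10. Both patterns are partial, and the KRAB pattern misses divergent domains such as that of Zfp445. The 95 genes summed to 4062 ± 129 normalized counts in mTO-iTreg cells, 3405 ± 154 in TGFβ-iTreg cells and 4765 ± 331 on day 0 (SD, n = 3 each), and the 3 groups did not overlap. As a share of each library's normalized total they made up 0.0803% ± 0.00234 in mTO-iTreg cells, 0.0684% ± 0.00166 in TGFβ-iTreg cells and 0.0806% ± 0.00367 on day 0, where TGFβ-iTreg cells lay below the others and mTO-iTreg and day 0 cells overlapped. Their median log2 changes were -0.33 in mTO-iTreg and -0.60 in TGFβ-iTreg cells against day 0, beside -0.10 and -0.28 for the 162 without the pattern. The classes also differed in level, with a median mean of 23.9 normalized counts with the pattern and 56.3 without. In TGFβ-iTreg against day 0 cells the Zfp medians were -0.77 under 20, -0.34 between 20 and 100 and -0.19 over 100. In mTO-iTreg against day 0 cells they were -0.18, -0.11 and -0.27. The part of level in this class difference, and in those by number of fingers below, was not tested. In mTO-iTreg against day 0 cells 5 KRAB genes rose and 10 fell, and in TGFβ-iTreg against day 0 cells none rose and 6 fell. These are 5.26% and 10.5% of the class, beside 19.4% higher and 14.5% lower of all tested genes, and 0% and 6.32%, beside 9.78% and 8.8%. Between the iTreg groups 6 were higher and 4 lower, or 6.32% and 4.21%, beside 14.9% and 11.8%. No test of the class against other genes was made. By number of fingers, the 34 genes with at most 3 had 9 rises and 5 falls in mTO-iTreg against day 0 cells, and the 142 with 10 or more had 7 rises and 14 falls. These are 26.5% and 14.7% of the first class and 4.93% and 9.86% of the second, beside 19.4% and 14.5% of all tested genes. The median log2 change in TGFβ-iTreg against day 0 cells was 0.04 for the genes with at most 3 fingers and -0.64 for genes with 10 or more. Across 257 genes the number of fingers and the log2 change in TGFβ-iTreg against day 0 cells had a Pearson r of -0.13 and a Spearman rho of -0.21, a weak relation over genes that share libraries.

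The genes lie unevenly in the genome, with 67 on chromosome 7 and 33 on chromosome 17. Grouping neighbours within 1 Mb gave 13 clusters of at least 5 Zfp genes, with 122 genes in all, and in some of them nearly all log2 changes had one sign. Over all Zfp genes, 43.2% had a positive log2 change in mTO-iTreg and 35.5% in TGFβ-iTreg against day 0 cells. Over all tested genes, 53.8% and 49.1% were positive, and 33.9% and 18.6% were called. Clusters, and the promoters and some of the genes picked from them, were chosen with these values in view. Genes of a cluster arose by duplication and can share sequence, so they are not independent, and their summed levels are given by library. On chromosome 13 (chr13:67069399-67827002, 14 genes, Zfp708 to Zfp273) none of the 14 had a positive log2 change in mTO-iTreg against day 0 cells, and 1 had in TGFβ-iTreg against day 0 cells. Only Zfp595 and Zfp953 were called. The 14 summed to 295, 409 and 329 in mTO-iTreg cells, 374, 387 and 433 in TGFβ-iTreg cells, and 600.0, 720.4 and 485 on day 0. Day 0 lay above both iTreg groups in every library, but as a share of each library's normalized total day 0 overlapped with TGFβ-iTreg cells. Under the alternatives 0 to 2 of the genes were positive in mTO-iTreg and 0 to 3 in TGFβ-iTreg against day 0 cells. In 3 of the 14, over 50% of the words at the transcript's end also occur in other genes.

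Zfp595 (chr13:67312998-67332570, 18 fingers, with the KRAB pattern) was at 6.14, 0 and 12 in mTO-iTreg cells, 22.1, 23.1 and 20.3 in TGFβ-iTreg cells, and 61.4, 102 and 41.1 on day 0. The 3 groups did not overlap. It was 11.3-fold lower in mTO-iTreg than in day 0 cells (log2 change -3.84 ± 0.81, adjusted p = 0.0024, limma). The difference between the iTreg groups (adjusted p = 0.047, limma) ended without any 1 of 8 libraries, all but mTO-iTreg replicate 3 (adjusted p = 0.051 to 0.14). Its neighbour Zfp953 was at 11.6, 24.8 and 0.664 in mTO-iTreg cells, 14.8, 17.6 and 27.7 in TGFβ-iTreg cells, and 40.4, 45.7 and 36.9 on day 0. Its fall in mTO-iTreg cells (adjusted p = 0.04, limma) ended without any 1 of 7 libraries, all but mTO-iTreg replicate 2 and TGFβ-iTreg replicate 1 (adjusted p = 0.05 to 0.14). The promoters of this pair are shown beside 3 from the cluster on distal chromosome 7 whose log2 changes were mostly of the other sign (described next), since they are the genes of both clusters that were called in mTO-iTreg against day 0 cells. They run from 250 bases before to 50 after the RefSeq start on the gene's strand, the minus strand for all 5 (GRCm38.p6), at chr13:67332511-67332810 for Zfp595, chr13:67360523-67360822 for Zfp953, chr7:127345265-127345564 for Zfp768, chr7:127421985-127422284 for Zfp688 and chr7:127614384-127614683 for Zfp629, which has 3 listed starts. Capitals mark CG dinucleotides.
Zfp595: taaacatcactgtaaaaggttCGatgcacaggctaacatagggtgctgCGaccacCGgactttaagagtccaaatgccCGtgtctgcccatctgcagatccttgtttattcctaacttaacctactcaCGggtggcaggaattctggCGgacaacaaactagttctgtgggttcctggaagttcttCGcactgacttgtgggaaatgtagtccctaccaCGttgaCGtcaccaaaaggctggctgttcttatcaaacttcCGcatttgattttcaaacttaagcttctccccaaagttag
Zfp953: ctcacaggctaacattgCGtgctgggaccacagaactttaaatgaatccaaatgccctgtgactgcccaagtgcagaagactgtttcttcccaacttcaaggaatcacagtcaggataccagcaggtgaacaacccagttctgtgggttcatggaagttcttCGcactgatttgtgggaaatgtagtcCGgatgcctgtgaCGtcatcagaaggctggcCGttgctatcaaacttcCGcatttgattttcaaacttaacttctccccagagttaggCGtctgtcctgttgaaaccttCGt
Zfp768: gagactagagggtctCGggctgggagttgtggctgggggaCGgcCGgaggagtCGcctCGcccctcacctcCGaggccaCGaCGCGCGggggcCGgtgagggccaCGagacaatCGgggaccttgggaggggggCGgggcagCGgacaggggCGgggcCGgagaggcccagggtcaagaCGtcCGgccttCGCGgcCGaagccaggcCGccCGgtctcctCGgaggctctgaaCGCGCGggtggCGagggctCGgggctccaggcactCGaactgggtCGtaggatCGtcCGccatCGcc
Zfp688: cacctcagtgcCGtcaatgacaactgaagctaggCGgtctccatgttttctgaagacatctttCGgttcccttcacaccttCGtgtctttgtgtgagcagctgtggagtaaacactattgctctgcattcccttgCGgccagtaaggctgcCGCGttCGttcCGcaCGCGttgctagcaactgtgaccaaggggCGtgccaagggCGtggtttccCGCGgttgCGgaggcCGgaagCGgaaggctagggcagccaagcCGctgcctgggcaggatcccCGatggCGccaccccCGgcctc
Zfp629: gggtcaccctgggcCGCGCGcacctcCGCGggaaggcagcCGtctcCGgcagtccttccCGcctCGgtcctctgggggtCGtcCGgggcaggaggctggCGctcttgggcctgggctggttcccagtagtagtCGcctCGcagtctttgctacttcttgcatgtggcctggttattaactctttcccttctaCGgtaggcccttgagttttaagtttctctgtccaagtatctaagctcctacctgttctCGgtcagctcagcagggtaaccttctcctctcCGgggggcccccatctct
The Zfp595 and Zfp953 promoters are relatives. They share an unbroken run of 33 bases, while no other pair of the 5 shares a run of over 11. They hold 10 and 8 CG dinucleotides, and those of Zfp768, Zfp688 and Zfp629 hold 35, 22 and 17. The median over the chromosome 13 cluster was 8.5 and over the distal chromosome 7 cluster 23, counting for each gene its promoter with the most CG dinucleotides. By the same count, relations of CG number to log2 change over 216 Zfp genes were weak. Pearson r was 0.096 and Spearman rho 0.045 in mTO-iTreg against day 0 cells, and 0.205 and 0.235 in TGFβ-iTreg against day 0 cells. Whether CG number goes with the direction of change was not tested. Counted over every listed promoter, which is another measure, the median was 16 for the 265 promoters found for 216 of the Zfp genes. It was 7 for all 32851 promoters of the RefSeq set. Both chromosome 13 promoters hold a CRE (TGACGTCA), a motif in 4.53% of Zfp promoters and 1.79% of all, and that of Zfp688 holds the E2F motif TTTCCCGC, found in 2.64% and 1.07%.

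On distal chromosome 7 (chr7:127233061-127876828, 9 genes, Zfp553 to Zfp668), 8 of 9 genes had a positive log2 change in mTO-iTreg and 8 in TGFβ-iTreg against day 0 cells. The sums were 629.5, 391 and 466 in mTO-iTreg cells, 504, 492 and 555 in TGFβ-iTreg cells, and 335, 290.3 and 285 on day 0, and both iTreg groups lay above day 0. Much of the TGFβ-iTreg difference from day 0 was Zfp771, but less of the mTO-iTreg difference. Without Zfp771 the sums were 399, 286 and 258 in mTO-iTreg cells and 216, 189.9 and 175 in TGFβ-iTreg cells. On day 0 they were 184, 199 and 123, so that TGFβ-iTreg cells overlapped with day 0 and mTO-iTreg cells did not. That overlap depended on the scaling. As a share of each library's normalized total, the genes without Zfp771 lay above day 0 in both iTreg groups, with no overlap. Zfp768, Zfp688 and Zfp629, whose promoters are shown above, rose in mTO-iTreg cells. Zfp629 was at 56.6, 47.1 and 22.6 in mTO-iTreg cells, 7.38, 12.9 and 11.4 in TGFβ-iTreg cells, and 1.75, 0 and 2.11 on day 0, where it rested on 3 counts in all. Neither iTreg group overlapped with day 0 (adjusted p = 0.00046 and 0.03, limma). The TGFβ-iTreg call ended without TGFβ-iTreg replicate 2 or 3 or day 0 replicate 2 (adjusted p = 0.077 to 0.096), and limma-voom on recovered counts gave 0.2. Zfp768 was at 8.18, 8.06 and 10.6 in mTO-iTreg cells, 0, 5.43 and 4.45 in TGFβ-iTreg cells, and 0 in all 3 day 0 libraries (adjusted p = 0.016 for mTO-iTreg against day 0 cells, limma). It passed the minimum only through the mTO-iTreg libraries and TGFβ-iTreg replicate 2, so its call leans on the rule that chose it. Zfp688 was at 151, 83.7 and 98.3 in mTO-iTreg cells, 86.1, 54.3 and 57.8 in TGFβ-iTreg cells, and 59.7, 40.3 and 30.6 on day 0 (2.55-fold higher in mTO-iTreg than in day 0 cells, adjusted p = 0.013, limma), a call that ended without mTO-iTreg replicate 1 (adjusted p = 0.07). Zfp771 rose in TGFβ-iTreg cells, to 288, 302 and 380.4 against 151, 91.4 and 161 on day 0 (adjusted p = 0.01, limma), while mTO-iTreg cells had 231, 105 and 208. With genes under the minimum tested too, its adjusted p was 0.056.

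On proximal chromosome 17 (chr17:21008903-23564238, 18 genes, 13 of them with the KRAB pattern), Zfp820 passed the minimum only through the 3 day 0 libraries, so it had to differ and is left out of what follows. Of the other 17 genes, 14 had no positive log2 change in mTO-iTreg and 14 in TGFβ-iTreg against day 0 cells. They summed to 508, 526 and 513 in mTO-iTreg cells, 418, 345 and 344 in TGFβ-iTreg cells, and 818, 653 and 593 on day 0. The 3 groups did not overlap, but as a share of each library's normalized total mTO-iTreg cells overlapped with day 0. In TGFβ-iTreg against day 0 cells, Zfp51, Zfp677, Zfp942 and Zfp946 fell and none rose. The Zfp942 call (12.4 ± 8.4 in TGFβ-iTreg cells and 61.5 ± 15.8 on day 0, SD, n = 3 each, adjusted p = 0.017, limma) ended without TGFβ-iTreg replicate 2 or day 0 replicate 1 or 2 (adjusted p = 0.054 to 0.06). Zfp677 was at 2.73, 13.6 and 17.9 in mTO-iTreg cells, 0, 3.39 and 0.494 in TGFβ-iTreg cells (6 counts in all), and 33.3, 21.5 and 21.1 on day 0 (adjusted p = 0.0072 for TGFβ-iTreg against day 0 cells, limma). Zfp946 was at 24.6, 14.9 and 9.96 in mTO-iTreg cells, 0, 2.71 and 7.41 in TGFβ-iTreg cells, and 26.3, 34.9 and 27.4 on day 0 (adjusted p = 0.011, limma). Zfp51 was at 50.5, 53.3 and 48.5 in mTO-iTreg cells, 41.8, 14.2 and 22.7 in TGFβ-iTreg cells, and 89.5, 94.1 and 88.6 on day 0 (3.45-fold lower in TGFβ-iTreg than in day 0 cells, adjusted p = 0.0065, limma). Zfp52, between them, went the other way in mTO-iTreg cells, with 51.6 ± 12.1 in mTO-iTreg cells and 19.5 ± 7.65 on day 0 (SD, n = 3 each, adjusted p = 0.037, limma). That call ended without mTO-iTreg replicate 1 or 2 or day 0 replicate 2 or 3 (adjusted p = 0.08 to 0.12). Zfp820 is 1 of the 29 Zfp genes called lower in mTO-iTreg than in day 0 cells, which leaves 28 without it.

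On proximal chromosome 7 (chr7:12415153-12985714, 7 genes, Zfp551 to Zfp446), all 7 genes had a negative log2 change in TGFβ-iTreg against day 0 cells, and none was positive under any alternative. The sums were 317, 354 and 325 in mTO-iTreg cells, 162, 165 and 174 in TGFβ-iTreg cells, and 375, 290.3 and 368 on day 0. TGFβ-iTreg cells lay below both other groups. Zfp110 (chr7:12834761-12850577) was at 134, 151 and 124 in mTO-iTreg cells, 66.4, 61.0 and 54.8 in TGFβ-iTreg cells, and 133, 105 and 100.2 on day 0 (2.24-fold higher in mTO-iTreg than in TGFβ-iTreg cells, adjusted p = 0.0054, limma). Zfp329 was the other of the 7 called lower in TGFβ-iTreg than in day 0 cells (adjusted p = 0.042, limma). Against day 0 the Zfp110 call (adjusted p = 0.033, limma) ended without any TGFβ-iTreg library or day 0 replicate 1 or 2 (adjusted p = 0.052 to 0.11), and the Zfp329 call without any 1 of 8 libraries, all but day 0 replicate 1 (adjusted p = 0.05 to 0.17). The next cluster on this chromosome, of 9 genes that include Zfp574, summed to 368 ± 28.3 in mTO-iTreg cells, 172 ± 17.5 in TGFβ-iTreg cells and 208 ± 27.1 on day 0 (SD, n = 3 each), of which Zfp574 alone gave 241, 80.8 and 59.2.

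**Figure D3:**
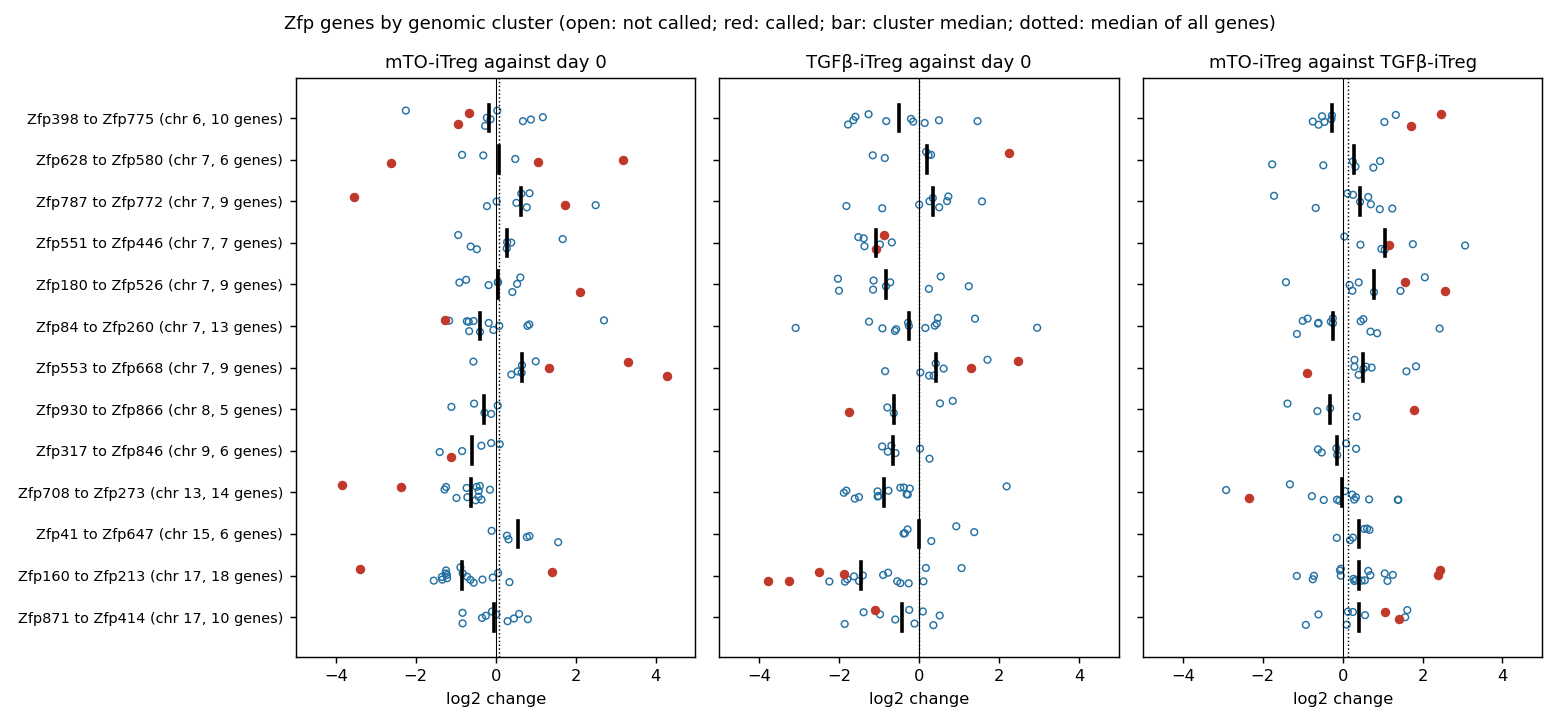
Log2 change of each Zfp gene in the 13 genomic clusters (rows, named by their first and last gene) for each iTreg group against day 0 (mTO-iTreg, then TGFβ-iTreg) and for mTO-iTreg against TGFβ-iTreg cells. Open rings were not called and red points were, thick bars are cluster medians and the dotted line is the median of all tested genes. The 14 genes of the chromosome 13 row from Zfp708 to Zfp273 all lie left of 0 in the first panel.

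**Figure D4:**
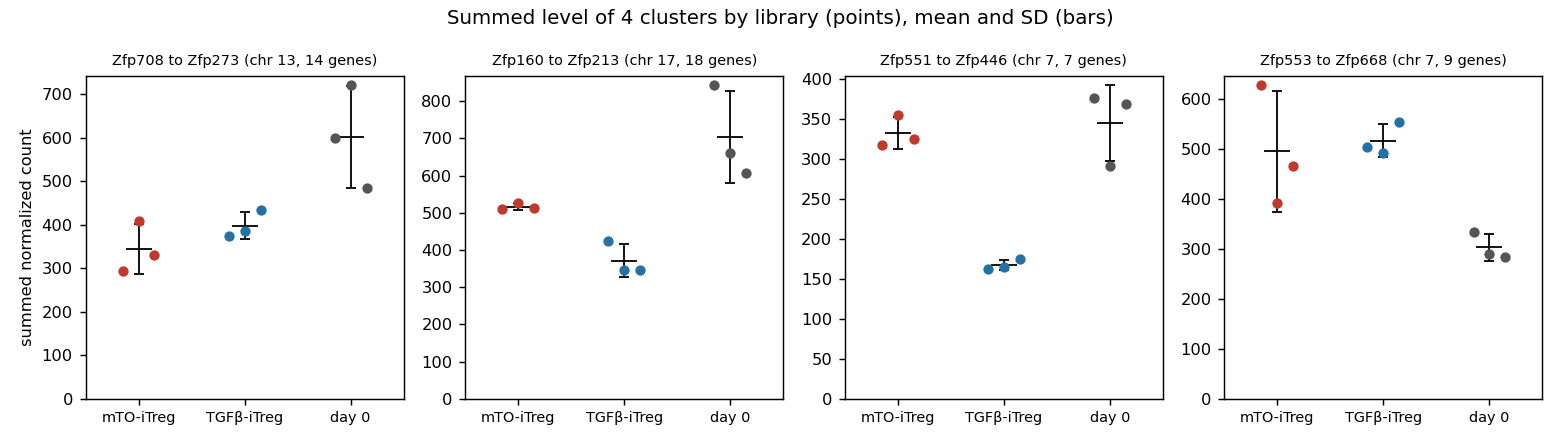
Summed normalized counts of 4 clusters in each library (points) of mTO-iTreg, TGFβ-iTreg and day 0 cells, with the mean and SD of 3 libraries (bars). The chromosome 17 cluster is drawn with Zfp820. The chromosome 13 and chromosome 17 clusters are highest on day 0, the chromosome 7 cluster from Zfp551 to Zfp446 is lowest in TGFβ-iTreg cells, and that from Zfp553 to Zfp668 is lowest on day 0.

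Among the genes of the proteins through which KRAB zinc finger proteins silence DNA, some rose and some fell. Of 16 listed partner genes, 14 were measured. In mTO-iTreg against day 0 cells 5 rose and 3 fell, in TGFβ-iTreg against day 0 cells 3 rose and 3 fell, and between the iTreg groups 3 were higher and 2 lower, beside the shares of 33.9%, 18.6% and 26.6% called over all tested genes. Trim28, the scaffold that KRAB domains bind, was at 2393 ± 302 in mTO-iTreg cells, 852 ± 169 in TGFβ-iTreg cells and 612 ± 114 on day 0 (SD, n = 3 each). It rose 3.91-fold in mTO-iTreg against day 0 cells (adjusted p = 2.8e-06, limma) and was 2.81-fold higher than in TGFβ-iTreg cells (adjusted p = 4.4e-05, limma). Setdb1, the methyltransferase that Trim28 recruits, averaged 294 ± 50.5, 425 ± 53.9 and 339 ± 94.1 and was not called in any comparison. Its partner Atf7ip was at 552 ± 131 in mTO-iTreg cells, 102 ± 56.3 in TGFβ-iTreg cells and 249.6 ± 89.2 on day 0, with adjusted p = 0.00037 between the iTreg groups (limma). Its calls against day 0 ended without any 1 of 4 libraries in mTO-iTreg cells (mTO-iTreg 1 and 3, day 0 replicates 1 and 2, adjusted p = 0.064 to 0.13) and without any 1 of 3 in TGFβ-iTreg cells (TGFβ-iTreg 1, day 0 replicates 1 and 3, adjusted p = 0.081 to 0.096).

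Of the heterochromatin proteins, Cbx5 rose 2.66-fold in mTO-iTreg against day 0 cells (209 ± 69.5 against 78.9 ± 20.6, SD, n = 3 each, adjusted p = 0.0026, limma), while Cbx1 and Cbx3 were not called. Chaf1a, the large subunit of the chromatin assembly factor CAF-1, was at 46.8 ± 3.54 in mTO-iTreg cells, 30.6 ± 11.9 in TGFβ-iTreg cells and 0.703 ± 1.22 on day 0, where it rested on 2 counts in all (adjusted p = 6.7e-05 and 0.00053, limma). Uhrf1, which guides the maintenance methyltransferase Dnmt1, averaged 73.8 ± 15.7, 139.6 ± 16.9 and 34.2 ± 16.1 in the same order and rose 4.08-fold in TGFβ-iTreg cells (adjusted p = 0.0025, limma). Its rise in mTO-iTreg cells (adjusted p = 0.032, limma) ended without mTO-iTreg replicate 1 or 2, TGFβ-iTreg replicate 2 or day 0 replicate 1 (adjusted p = 0.05 to 0.11). Dnmt1 itself averaged 742 ± 91.5, 745 ± 149 and 775 ± 96.4, with log2 changes of -0.06 and -0.07 against day 0 and a standard error of 0.17 each. Morc3, a silencing ATPase, fell in both iTreg groups (175 ± 27.2 in mTO-iTreg cells, 217 ± 20.2 in TGFβ-iTreg cells and 418 ± 48.6 on day 0, adjusted p = 0.00022 and 0.004, limma). The remodeller Smarcad1 fell 3.07-fold in mTO-iTreg against day 0 cells (adjusted p = 0.00081, limma). The HUSH complex subunit Mphosph8 fell 4.29-fold in TGFβ-iTreg against day 0 cells (33.7 ± 11.3 against 144 ± 60.5, adjusted p = 0.0031, limma) and was 4.64-fold higher in mTO-iTreg than in TGFβ-iTreg cells (adjusted p = 0.0013, limma). Pphln1, the HUSH subunit periphilin, averaged 257 ± 36.5 in mTO-iTreg cells, 549.7 ± 152 in TGFβ-iTreg cells and 424 ± 95.9 on day 0. It was lower in mTO-iTreg than in TGFβ-iTreg cells under all alternatives (adjusted p = 0.0029, limma), and its fall against day 0 (adjusted p = 0.023, limma) ended without mTO-iTreg replicate 1 or day 0 replicate 2 (adjusted p = 0.086 to 0.1) and at equal totals (0.092). Chaf1b, another CAF-1 subunit, averaged 136 ± 46.1 in mTO-iTreg cells, 263 ± 93 in TGFβ-iTreg cells and 88.4 ± 61 on day 0. Its rise in TGFβ-iTreg against day 0 cells (adjusted p = 0.016, limma) ended without TGFβ-iTreg replicate 3 or day 0 replicate 1 (adjusted p = 0.057 to 0.074).

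**Figure D5:**
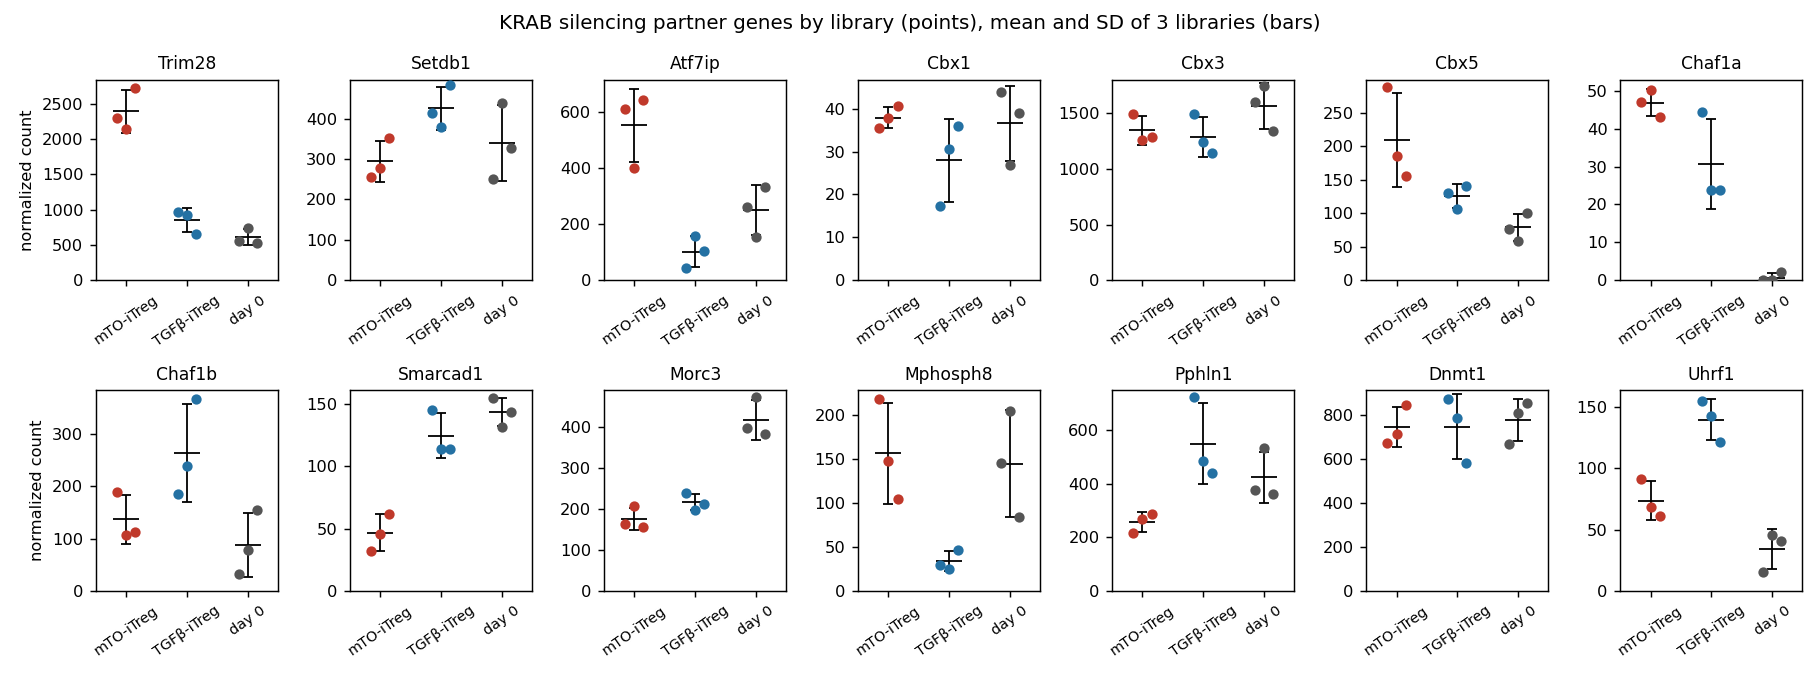
Normalized counts of the 14 measured partner genes of KRAB silencing in each library (points) of mTO-iTreg, TGFβ-iTreg and day 0 cells, with the mean and SD of 3 libraries (bars), each panel on its own axis from 0. Trim28 is highest in mTO-iTreg cells, Mphosph8 and Atf7ip are lowest in TGFβ-iTreg cells, and Morc3 is highest on day 0.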

How the data were processed

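Total RNA of sorted cells was read by a modified CEL-Seq protocol, per the labels. BWA, mm10 and DESeq2 normalization are named in the submitters' processing notes, without versions or a word on strand. Values in the table the authors deposited are counts scaled by library; dividing them by the value of 1 count gave whole numbers within 0.1 for 100% of values. CEL-Seq reads transcript ends, so values were not divided by length.

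For all 10983 genes that reached the minimum, the deposited values with a pseudocount of 1 were taken to log2 and tested with limma 3.58.1 in R 4.3.3, using the means of the 3 groups and eBayes with its trend option (6 degrees of freedom left). Adjusted p-values are Benjamini-Hochberg over all tested genes, with a threshold of 0.05, and "called" means under it. Fold changes are ratios of means of normalized counts, and log2 changes come from the fit. For rarely read genes the log2 change can be smaller than that ratio, through the pseudocount, or larger, where a library is near 0. The test was chosen because the deposited values are normalized, and was tested on simulated data. Positions are of GENCODE M21 (GRCm38), promoters of RefSeq (GRCm38.p6). Proteins for the finger and KRAB patterns were translated from GENCODE transcripts. Motifs were searched as exact letters on both strands, with overlaps allowed.

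Named genes were, per comparison, the 8 largest called rises and falls whose higher group averaged 20 or more and whose libraries did not overlap, the 10 most highly read Zfp genes, and all measured genes of the lists; others were picked after their values were seen, as cluster members or for their pattern of calls. The genes and lists were chosen with earlier results of these data known. Whether libraries are from separate animals or cultures is not stated in the labels, so p-values measure the spread between these samples, which may be technical. Between libraries of the same replicate number, correlations of deviations from the group means ran from -0.05 to 0.06. Such values cannot show whether libraries were paired. Day 0 and TGFβ-iTreg libraries of the same replicate number carried consecutive sample codes, and in both groups Xist was highest in replicate 3. Whether they share an origin is not stated in the labels and was not tested, so the main test used no pairing. Alternatives changed the pseudocount, filter, scaling, model and test, or left out 1 library. Figures were drawn with matplotlib 3.10.9 and tables made with pandas 2.3.3 and numpy 2.4.6 under Python 3.11.15.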

Additional observations from a re-analysis of the deposited data

Results flagged for a closer look

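Zfp706 moved in opposite directions in the iTreg groups against the same day 0 cells, with a difference of -2.08 on the log2 scale between mTO-iTreg and TGFβ-iTreg cells (adjusted p = 3e-08, limma). All 3 mTO-iTreg libraries were below day 0 and all 3 TGFβ-iTreg libraries above it. Of the 31-base words at its transcript's end, 54% also occur in other genes, and the part of shared reads was not tested.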

How the results depend on the processing

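No called direction of a named gene was reversed in any alternative. Of 34 named Zfp genes called in mTO-iTreg against day 0 cells, 19 kept the call under every alternative, as did 7 of 19 in TGFβ-iTreg against day 0 cells and 12 of 28 between the iTreg groups. In mTO-iTreg against day 0 cells, leaving out 1 library gave 12 to 20 rises and 18 to 30 falls. The fewest rises came without mTO-iTreg replicate 1, and the fewest falls without day 0 replicate 1 or 2. In TGFβ-iTreg against day 0 cells it gave 3 to 7 rises and 8 to 16 falls, with the fewest without TGFβ-iTreg replicate 2 and day 0 replicate 2. Between the iTreg groups it gave 16 to 27 higher (fewest without mTO-iTreg replicate 1) and 7 to 13 lower (fewest without TGFβ-iTreg replicate 2 or 3). Partner genes called were 5 to 9 in mTO-iTreg against day 0 cells without 1 library, with 5 without mTO-iTreg replicate 1.
Quantile normalization gave 46 falls in mTO-iTreg against day 0 cells and 21 lower genes between the iTreg groups. Equal totals gave 11 rises and 10 falls in TGFβ-iTreg against day 0 cells. That scaling ended the TGFβ-iTreg falls of Zfp62, Zfp110, Zfp143, Zfp329, Zfp386, Zfp397, Zfp692 and Zfp871 (adjusted p = 0.051 to 0.24, limma). It also ended the mTO-iTreg falls of Zfp445, Zfp746, Zfp953 and Zfp961 against day 0 (adjusted p = 0.06 to 0.22, limma). limma-voom on recovered counts gave 2 rises there, 20 lower genes between the iTreg groups, and 8 partner genes called between them. Without the shallowest day 0 and TGFβ-iTreg libraries, an alternative chosen after seeing the data, 19 fell in mTO-iTreg cells, and 2 rose and 8 fell in TGFβ-iTreg cells, against day 0. With at least 2-fold required, 7 were lower between the iTreg groups. With no filter and with no variance trend, 5 partner genes each were called in mTO-iTreg against day 0 cells. The replicate block gave 21 rises and 28 falls, 7 and 15, and 20 and 12 in the order of the comparisons above. The cause of these shifts was not tested. The planned count tests of edgeR and DESeq2 were not run.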
